A study of Mus musculus with 6 samples.

Results

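The genes described here are 9 markers of the primitive endoderm: the transcription factors Gata4, Gata6, Sox17, Sox7 and Hnf4a, the growth factor receptor Pdgfra, the endocytic adaptor Dab2 and the endocytic receptor pair Cubn and Amn. They were taken by gene name from a table of read counts for 48440 genes, and all 9 names had a row. The table holds RNA-seq of polyadenylated RNA from 6 clonal lines of male mouse induced pluripotent stem cells (iPSCs), 3 with a Cas9 knockout of Tet1, an oxidase of 5-methylcytosine, and 3 non-targeted. All clones came from the line iPSC34.3, whose strain name joins B6- Tet1tm1Kohx with B6;CBA-Tg(Pou5f1-EGFP)2Mnn/J. The knockout clones have the genotype wt/wt;GFP/wt with Tet1 Cas9 mut/mut, and the non-targeted clones, which served as controls, wt/wt;GFP/wt, so that the Pou5f1-EGFP reporter is shared by both groups. Per the labels' protocols, the cells had 14 passages in KSR medium before transfection with Cas9 ribonucleoprotein, a guide against Tet1 and a donor oligonucleotide. A 12 h treatment with an enhancer followed, then 4 passages of the picked colonies and expansion on MEFs, the fibroblast feeder cells from which the colonies were separated for RNA. The same protocol text stands for both groups, so what the non-targeted clones received is not told apart by it. Each library is a clone of its own, and all clones share 1 parental line.

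Primitive endoderm is the extraembryonic lineage that separates from the epiblast inside the blastocyst and later lines the yolk sac as visceral and parietal endoderm. FGF signals from epiblast cells, received through FGF receptors and ERK, switch on Gata6 in its precursors, and Pdgfra, Sox17, Gata4 and Sox7 follow in turn. Dab2, cubilin and amnionless serve the uptake of nutrients by visceral endoderm, where Hnf4a drives genes for secreted plasma proteins. Pluripotent cultures normally hold these transcripts at low levels, and several of the genes are also used by other cells, such as Pdgfra and Dab2 by fibroblasts, Sox7 and Sox17 by endothelium, and Gata4 and Gata6 by mesoderm.

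The 3 genes called in DESeq2, Dab2, Cubn and Pdgfra, are shown by the 250 bases before their RefSeq transcription starts (GRCm38.p6), because these are the genes that passed a test. Capitals mark the letters bound by GATA factors (AGATAA, the variant AGATAG, the variant TGATAA and the variant TGATAG) and the core of SOX sites (ACAAT), on either strand. Dab2 has 2 starts in the table, and both are given.
Dab2 first start, chr15:6299539-6299788, plus strand: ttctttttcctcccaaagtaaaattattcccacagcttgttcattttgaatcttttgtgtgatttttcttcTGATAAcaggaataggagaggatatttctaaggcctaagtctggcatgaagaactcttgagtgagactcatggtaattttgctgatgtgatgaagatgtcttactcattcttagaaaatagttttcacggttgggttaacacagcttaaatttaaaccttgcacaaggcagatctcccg
Dab2 second start, chr15:6386498-6386747, plus strand: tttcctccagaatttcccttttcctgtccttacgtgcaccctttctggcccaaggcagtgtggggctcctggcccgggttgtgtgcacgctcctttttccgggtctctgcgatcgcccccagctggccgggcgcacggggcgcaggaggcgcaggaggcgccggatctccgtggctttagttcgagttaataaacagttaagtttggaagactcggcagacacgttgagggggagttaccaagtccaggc
Cubn, chr2:13491877-13492126, minus strand: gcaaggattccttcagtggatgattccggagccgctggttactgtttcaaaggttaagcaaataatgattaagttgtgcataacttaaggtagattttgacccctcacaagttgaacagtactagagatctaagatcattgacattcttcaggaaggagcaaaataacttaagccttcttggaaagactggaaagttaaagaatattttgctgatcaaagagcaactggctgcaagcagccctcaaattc
Pdgfra, chr5:75152001-75152250, plus strand: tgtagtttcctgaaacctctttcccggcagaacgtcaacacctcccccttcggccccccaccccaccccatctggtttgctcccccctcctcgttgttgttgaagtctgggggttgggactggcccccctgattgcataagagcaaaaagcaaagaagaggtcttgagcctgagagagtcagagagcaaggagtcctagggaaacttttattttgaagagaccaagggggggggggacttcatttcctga
The first start of Dab2 held 1 GATA match, TGATAA, and none of the other 3 windows held GATA or SOX letters. Over 32817 such windows of all genes, 26.6% held the GATA letters and 27.7% the SOX letters. The windows also differed in CpG content. The second start of Dab2 had 17 CpG dinucleotides, with an observed over expected ratio of 0.757, above 77.7% of all windows. Its first start had 2 (ratio 0.237), Cubn 2 (0.206) and Pdgfra 4 (0.216), below the median ratio of 0.373 over all windows. In all, 5 of the 9 genes matched the table of promoters, Amn and Hnf4a being the others. Gata4, Gata6, Sox17 and Sox7 did not match.

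Total counts were between 11937909 and 16189554 per library. Tet1 itself had 365, 231 and 288 CPM (reads of a gene per library size, brought to 1 scale by TMM factors) in knockout replicates 1, 2 and 3, and 1155, 965 and 1032 CPM in the controls, so the targeted gene was lower in each knockout library but still present. The pluripotent cell markers were present in all 6 libraries, Pou5f1 at 674 to 691 CPM in knockout clones and 742 to 847 CPM in the controls. The knockout libraries differed from each other: the summed CPM of 6 defining fibroblast markers (Col1a1, Col1a2, Col3a1, Thy1, Dcn and Lum) was 119, 128 and 411 in replicates 1, 2 and 3, against 54.9, 90.7 and 86.7 in the controls.

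Across the 9 genes, 5 were higher in all knockout clones than in all controls (Gata4, Sox17, Pdgfra, Dab2 and Cubn), 1 was lower in every knockout clone (Sox7), and 3 overlapped (Gata6, Hnf4a and Amn). Of the 7 that could be tested, 4 were higher and 1 was lower. Over all tested genes 14.8% were higher and 14.7% lower in this sense. Sox17 and Hnf4a had too few counts for the test. With edgeR's quasi-likelihood test at an adjusted p of 0.05, 0 of the 7 were called, as were 0 of 14664 genes (0%), and 4 of the 7 had an unadjusted p under 0.05, as did 24.8% of all tested genes. The targeted gene Tet1 was itself not called by edgeR, at a log2 fold change of -1.84 ± 0.16 (SE) and an adjusted p of 0.0703. Its DESeq2 adjusted p was 9.06e-20. A lack of edgeR calls is thus weak evidence of no change. DESeq2 called 3, Dab2, Cubn and Pdgfra, all higher in the knockout, where 5.77% of all genes were called in that direction, 3.35% in the other and 9.12% in either. The median log2 fold change (knockout minus non-targeted) of the 7 was 0.97, beside 0.00 over all tested genes. These counts describe genes that were picked with earlier results known. In single-gene exact permutation tests, 3 clones against 3 cannot give a two-sided p below 0.1.

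**Figure D1:**
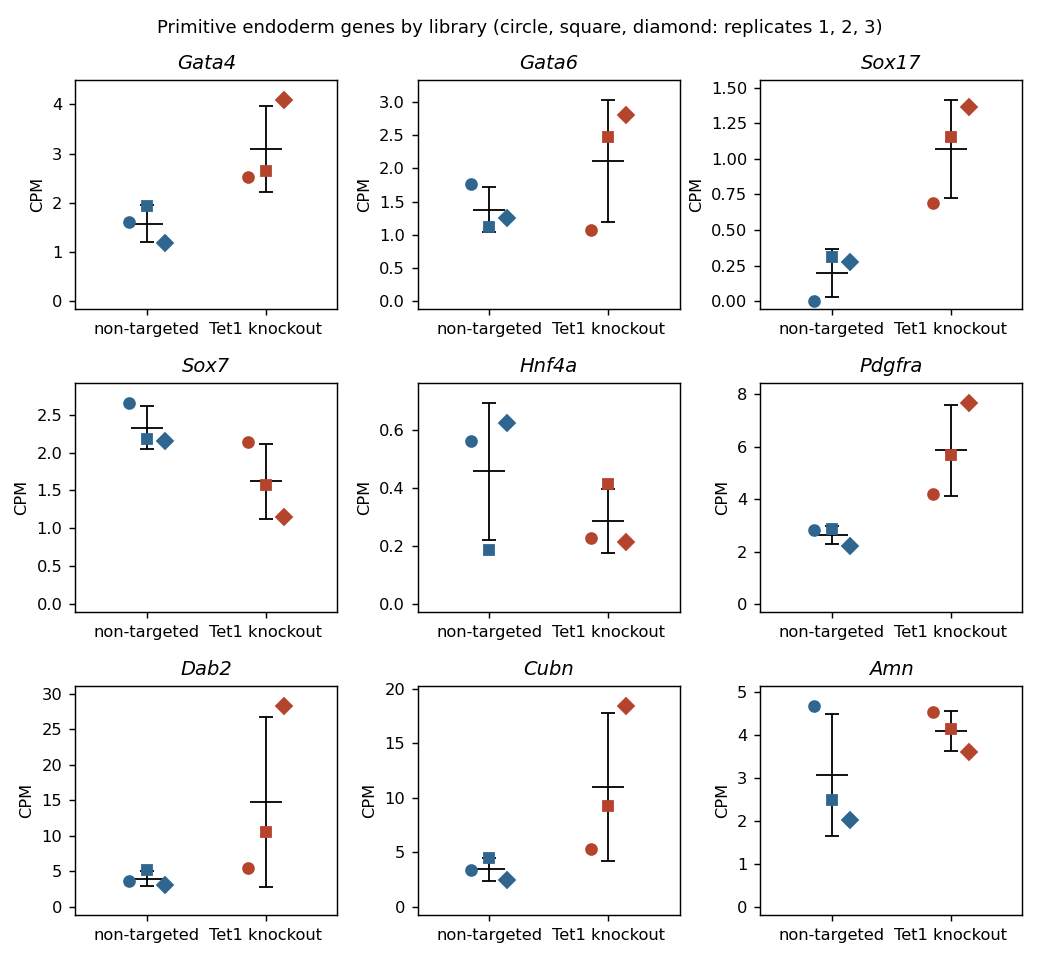
CPM of the 9 genes in the 3 non-targeted (blue) and 3 Tet1 knockout (red) libraries, each panel with its own axis from 0; circles, squares and diamonds are replicates 1, 2 and 3, and bars are the mean ± SD. Dab2 and Cubn reached 28.3 and 18.4 CPM in knockout replicate 3, while Sox7 was lowest there, at 1.15 CPM.

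Of the GATA factors, zinc finger proteins that open the primitive endoderm programme, Gata4 (ENSMUSG00000021944.15, chr14:63198922-63271692 of GRCm38, minus strand) had 33, 32 and 57 reads in knockout replicates 1 to 3, or 2.53, 2.64 and 4.09 CPM. The non-targeted clones had 20, 31 and 17 reads, or 1.61, 1.93 and 1.18 CPM. All 3 knockout values lay above all 3 non-targeted values, with means of 3.09 ± 0.872 and 1.57 ± 0.377 CPM (SD, n = 3). Exact 95% Poisson intervals cover counting error only. They were 1.74 to 3.55 CPM for knockout replicate 1 and 1.31 to 2.74 CPM for non-targeted replicate 2, which overlap. The log2 fold change was 0.97 ± 0.32 (SE) with an edgeR adjusted p of 0.143 and a DESeq2 adjusted p of 0.121. Without knockout replicate 1 the edgeR adjusted p was 0.0438, in a fit that called 15.1% of all tested genes higher, and the DESeq2 adjusted p was 0.0867. Leaving out any other single library gave edgeR adjusted p between 0.200 and 0.376.

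Gata6 (ENSMUSG00000005836.8, chromosome 18), the earliest of these factors in the embryo, did not separate the groups. It had 1.07, 2.48 and 2.80 CPM in the knockout clones and 1.77, 1.12 and 1.25 CPM in the controls. Knockout replicate 1 was the lowest of the 6 libraries and replicates 2 and 3 were the highest. The log2 fold change of 0.62 ± 0.41 had an edgeR adjusted p of 0.369, with 14 to 39 reads per library. It was 0.94 without knockout replicate 1 (edgeR adjusted p = 0.0633) and 0.36 without replicate 3 (edgeR adjusted p = 0.724).

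The relatives of these factors showed no call. Of 15 related factors and cofactors, 7 passed the filter on low counts and 6 were tested in DESeq2. Of these, 0 were called by edgeR or DESeq2, and 1 had an unadjusted edgeR p under 0.05. Gata2, Gata3 and Zfpm2, a cofactor of GATA4, had log2 fold changes of 0.21 ± 0.30, -0.08 ± 0.46 and 0.08 ± 0.24. Zfpm1 was listed at 0 in every library, and its row lies within a longer gene model of the same strand, where the counting gives no reads. None of the 9 genes is covered in this way over more than 0.161% of its body.

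The SOX genes, both of the F subgroup of HMG box factors, lay on opposite sides of the controls, Sox17 above and Sox7 below in each knockout clone, and neither passed with all 6 libraries. Sox17 (ENSMUSG00000025902.13, chr1:4490931-4497354, minus strand), which acts downstream of Gata6, had 9, 14 and 19 reads in knockout replicates 1 to 3 and 0, 5 and 4 reads in the controls. In CPM these were 0.689, 1.16 and 1.36 against 0, 0.311 and 0.278, so the groups did not overlap. Counting error was large at this depth. The exact 95% Poisson interval of knockout replicate 1 was 0.315 to 1.31 CPM and that of non-targeted replicate 2 was 0.101 to 0.727 CPM, which overlap. For the count of 0 in non-targeted replicate 1 the interval reached 0.297 CPM. Such intervals cover counting error only. The gene failed the filter because only 2 libraries reached the minimum. With no filter its log2 fold change was 2.32 ± 0.69 with an edgeR adjusted p of 0.108. DESeq2 gave it no adjusted p.

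Sox7 (ENSMUSG00000063060.5, chr14:63943674-63950732, plus strand), a factor of parietal endoderm, was the only one of the 9 lower in all knockout clones. It had 28, 19 and 16 reads, or 2.14, 1.57 and 1.15 CPM, against 33, 35 and 31 reads, or 2.66, 2.18 and 2.15 CPM. Knockout replicate 1 was barely below non-targeted replicate 3. Their exact 95% Poisson intervals, 1.42 to 3.10 and 1.46 to 3.05 CPM, overlap. The log2 fold change was -0.52 ± 0.31 (edgeR adjusted p = 0.319; DESeq2 adjusted p = 0.457), which did not pass. The number of Sox17 reads per 100 Sox7 reads of the same library was 32.1, 73.7 and 119 in the knockout clones and 0, 14.3 and 12.9 in the controls. With Sox17 higher and Sox7 lower in every knockout clone, this ratio had to separate the groups, so it adds no support. The related Sox18 had at most 5 reads in any library.

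Gata4 and Sox7 lie close together on chromosome 14, in a region that was low in 1 clone. The 20 scanned genes nearest to Gata4 (10 on each side with a mean above 4 CPM) had a median log2 difference from the non-targeted mean of -1.02 in knockout replicate 2, against -0.14 and -0.17 in replicates 1 and 3. Around Sox7 the medians were -0.97 in replicate 2 and -0.06 and -0.19 in the others. Within 6 Mb of Gata4, 55 of 65 scanned genes were below the non-targeted mean in replicate 2. Gata4 itself stood 0.71 above that mean in replicate 2, and Sox7 stood at -0.51. Without replicate 2, the log2 fold changes were 1.07 for Gata4 and -0.49 for Sox7. Around the other 7 genes the medians in the knockout libraries were between -0.18 and 0.18.

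**Figure D2:**
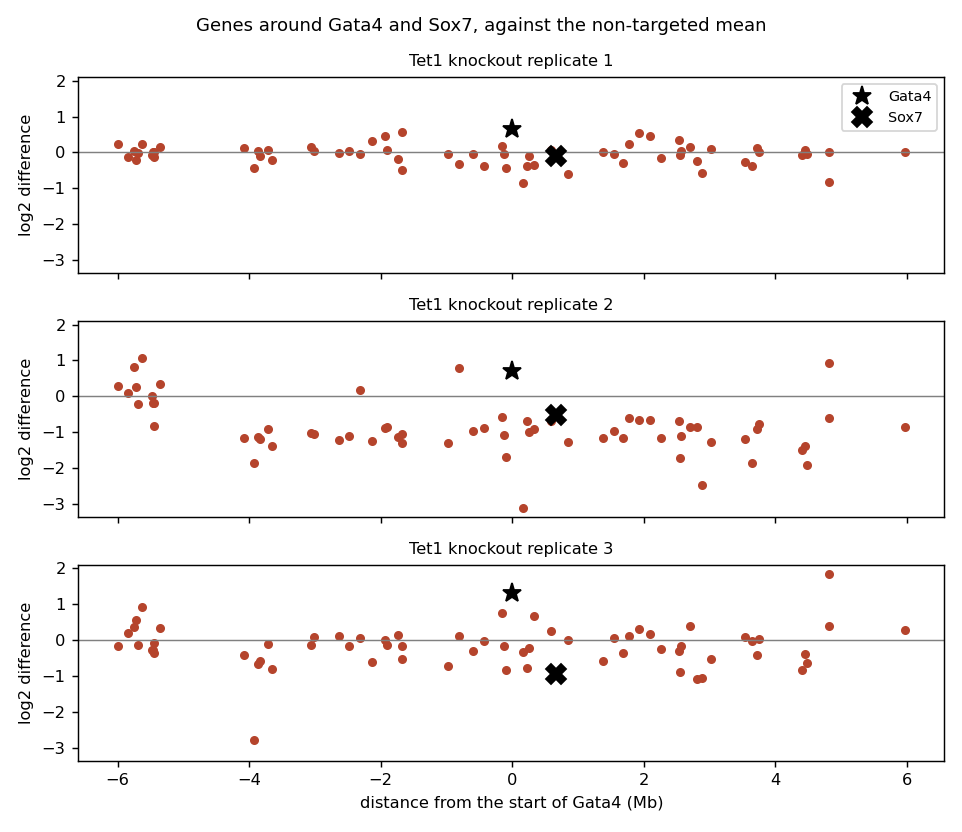
Log2 difference from the non-targeted mean (y) of each scanned gene against its distance from the start of Gata4 in Mb (x), 1 panel per knockout clone; the star is Gata4 and the cross is Sox7. In replicate 2, 55 of the 65 genes lie below 0, with a median of -0.96, and in replicates 1 and 3 the medians are -0.02 and -0.16.

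Pdgfra (ENSMUSG00000029231.15, chr5:75152292-75198215, plus strand), the receptor for PDGF-A and a surface marker of primitive endoderm, was higher in every knockout clone. It had 55, 69 and 107 reads, or 4.21, 5.70 and 7.68 CPM, against 35, 46 and 32 reads, or 2.82, 2.86 and 2.22 CPM. The means were 5.86 ± 1.74 and 2.63 ± 0.360 CPM (SD, n = 3), a ratio of 2.23. Among the 7 tested of the 9 genes, Pdgfra had the smallest edgeR adjusted p, 0.111 at a log2 fold change of 1.15 ± 0.28, and it rose in DESeq2 (adjusted p = 0.0183). With single libraries left out, the DESeq2 call held without knockout replicate 1 (adjusted p = 0.00177), while leaving out any other single library gave adjusted p between 0.0669 and 0.225. Without knockout replicate 1, DESeq2 called 4122 genes in all, against 1247 with all 6 libraries.

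The ligand Pdgfa, named after its values were seen, was much more abundant and did not pass, with 83.1 ± 12.0 CPM in knockout clones and 87.1 ± 2.70 CPM in the controls (log2 fold change -0.07 ± 0.11). Of 8 PDGF ligands and signalling genes, 1 rose and 1 fell in DESeq2. The rise was of Pdgfrb, the other PDGF receptor and a marker of fibroblasts and pericytes, at 4.52, 4.79 and 10.7 against 2.17, 3.30 and 2.36 CPM (1.35 ± 0.39; DESeq2 adjusted p = 0.0269; edgeR adjusted p = 0.127). The fall was of Plcg1, a phospholipase that signals from the receptors (-0.31 ± 0.08; DESeq2 adjusted p = 0.0352; edgeR adjusted p = 0.112). Pdgfra reads per 100 Pdgfrb reads were 93.2, 119 and 71.8 in the knockout and 130, 86.8 and 94.1 in the controls, so the ratio of the receptors overlapped between groups.

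Dab2 (ENSMUSG00000022150.16, chr15:6299788-6440712, plus strand), the clathrin adaptor that carries megalin and cubilin into the cell, had the highest fold change of the 7 tested genes. It had 72, 128 and 395 reads, or 5.51, 10.6 and 28.3 CPM, in knockout replicates 1 to 3. The non-targeted clones had 46, 83 and 44 reads, or 3.71, 5.17 and 3.05 CPM. Replicate 1 was only just above non-targeted replicate 2, and replicate 3 stood far above the rest. Its log2 fold change was 1.89 ± 0.57 (DESeq2 adjusted p = 0.00929; edgeR adjusted p = 0.129), and it was 1.01 without replicate 3.

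Cubn (ENSMUSG00000026726.10, chr2:13276338-13491813, minus strand) encodes cubilin, a large receptor with no membrane anchor of its own. Its 69, 112 and 257 reads gave 5.28, 9.25 and 18.4 CPM in the knockout, and its 42, 72 and 35 reads gave 3.38, 4.48 and 2.43 CPM in the controls. The libraries fell in the same order as for Dab2. The log2 difference was 1.68 ± 0.47 (DESeq2 adjusted p = 0.00909; edgeR adjusted p = 0.123), and 1.07 without replicate 3. Cubn reads per 100 Dab2 reads were 95.8, 87.5 and 65.1 in the knockout and 91.3, 86.7 and 79.5 in the controls, a range that overlapped between groups.

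Both DESeq2 calls depended on single libraries. For Dab2 the DESeq2 adjusted p was 9.13e-07 without knockout replicate 1, 0.0378 without knockout replicate 2 and 0.0205 without non-targeted replicate 2, and 0.198, 0.103 and 0.150 without knockout replicate 3, non-targeted replicate 1 and non-targeted replicate 3. For Cubn it was 5.56e-06 and 0.0167 without knockout replicate 1 and non-targeted replicate 2, and between 0.0568 and 0.166 without each of the others. The DESeq2 fit without knockout replicate 1 called 4122 genes in all, against 1247 with all 6 libraries.

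Amn (ENSMUSG00000021278.6, chr12:111271111-111276426, plus strand), the anchor that brings cubilin to the surface, overlapped between the groups. It had 59, 50 and 50 reads, or 4.52, 4.13 and 3.59 CPM, in the knockout and 58, 40 and 29 reads, or 4.67, 2.49 and 2.01 CPM, in the controls. Non-targeted replicate 1 was the highest library of all. Its log2 fold change of 0.42 ± 0.34 did not pass (edgeR adjusted p = 0.462; DESeq2 adjusted p = 0.543). Leaving out non-targeted replicate 1 gave 0.85 and leaving out non-targeted replicate 3 gave 0.19, and it passed in neither (edgeR adjusted p = 0.339 and 0.798).

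Among 17 measured partners of these receptors, 1 rose and 1 fell in DESeq2, and 0 were called by edgeR, with 7 at an unadjusted p under 0.05. Lrp8, a receptor for reelin and apolipoprotein E, rose from 15.6 ± 3.61 to 26.8 ± 7.42 CPM (SD, n = 3; log2 change 0.78 ± 0.25; DESeq2 adjusted p = 0.0478; edgeR adjusted p = 0.143). Its groups overlapped, with knockout replicate 1 at 18.3 CPM and non-targeted replicate 2 at 19.4 CPM. Ap2a1, a subunit of the clathrin adaptor AP-2, fell in DESeq2 (-0.40 ± 0.11; adjusted p = 0.0453; edgeR adjusted p = 0.123). Lrp2, or megalin, named after its values were seen, had 86.4, 204 and 246 CPM against 94.5, 126 and 124 CPM and did not pass (0.64 ± 0.34; edgeR adjusted p = 0.282; DESeq2 adjusted p = 0.198). Cubn reads per 100 Lrp2 reads were higher in each knockout clone, at 6.11, 4.54 and 7.49 against 3.58, 3.55 and 1.96.

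**Figure D3:**
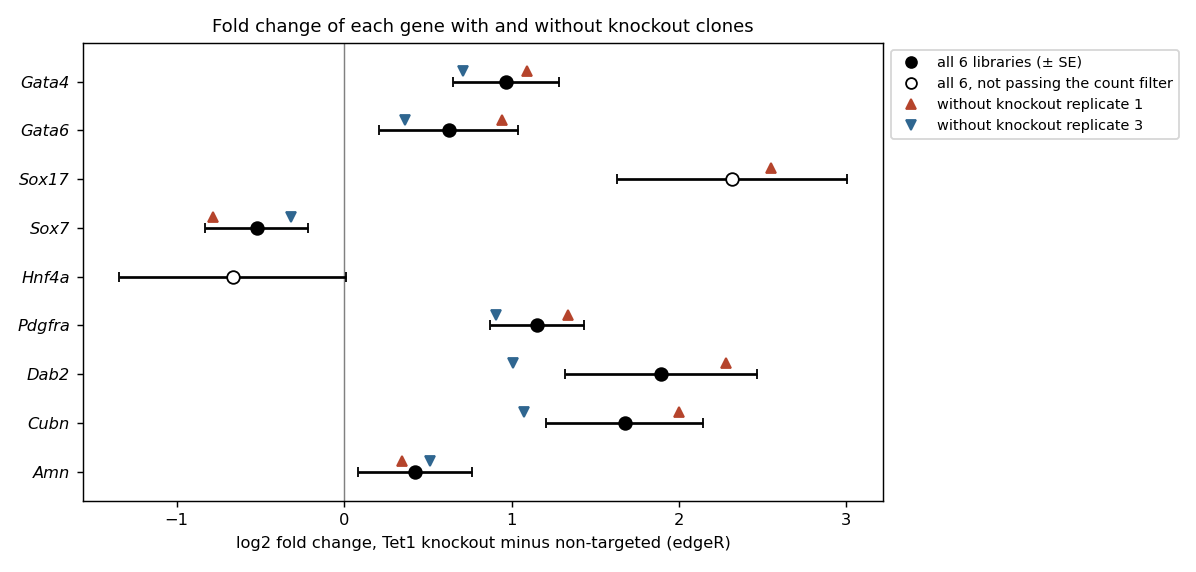
Log2 fold change (knockout minus non-targeted, x) of each gene from edgeR on all 6 libraries with its SE (circles; open where the gene failed the filter and was fitted without it), and without knockout replicate 1 (red) or 3 (blue), where the gene passed the filter. Dab2 moves from 1.89 to 2.28 without replicate 1 and to 1.01 without replicate 3, and Sox7 stays below 0 in both.

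Hnf4a (ENSMUSG00000017950.16, chr2:163506808-163572910, plus strand), the nuclear receptor of visceral endoderm and liver, was close to the limit of detection. It had 3, 5 and 3 reads in the knockout and 7, 3 and 9 reads in the controls, 0.187 to 0.624 CPM over the 6 libraries, and the groups overlapped. Most defining genes of visceral endoderm were at or near 0 as well. Of these 4, Ttr had 0 reads in all libraries, Afp at most 1 read and Apoa1 at most 2, and Apob, which carries lipoproteins, had 25 to 27 reads in the knockout and 7 to 21 in the controls. Apoa2, another apolipoprotein of this list, had 118, 78 and 87 reads against 98, 163 and 177 and did not pass, at a log2 fold change of -0.48 ± 0.24 (edgeR adjusted p = 0.246). Apob did not pass (log2 fold change 1.31 ± 0.41; edgeR adjusted p = 0.134; DESeq2 adjusted p = 0.103). Of the 19 visceral endoderm genes, 5 had no read in any library (Apoc2 among them lies within another gene model) and 3 passed the filter, of which 0 were called by edgeR or DESeq2 and 1 had an unadjusted edgeR p under 0.05.

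Levels between genes were compared per kilobase of exon, as the CPM divided by the exon length in GENCODE M21. The counts also hold intron reads, and the models of Gata6, Sox7 and Amn have other ends in M21 than in the deposited table, so this is a rough scale. In the non-targeted clones Amn was highest, at 1.66 ± 0.769 CPM per kb (SD, n = 3), followed by Sox7 at 0.706 ± 0.0864, Dab2 at 0.541 ± 0.148 and Gata4 at 0.403 ± 0.0965. Pdgfra, Cubn and Gata6 lay at 0.263, 0.230 and 0.212, and Hnf4a and Sox17 at 0.0949 and 0.0411. In this order the ranges of 1 SD overlapped for 5 of the 8 pairs of neighbours and were apart between Amn and Sox7, Gata4 and Pdgfra, and Gata6 and Hnf4a. In the knockout clones Amn was again highest at 2.21 ± 0.253, and Dab2 was next at 2.02 ± 1.63. There, the ranges overlapped for 7 of the 8 pairs. The order depended on the length used. Per kilobase of gene body, the span that was counted, Amn and Sox7 led in both groups, at 0.575 and 0.330 CPM per kb in the controls and 0.767 and 0.230 in the knockout. On that scale Dab2 and Gata4, which have long introns, stood at 0.0282 and 0.0216 in the controls, below Pdgfra at 0.0574, Gata6 at 0.0417 and Sox17 at 0.0306. In the knockout Dab2, at 0.105, was below Sox17 at 0.166 and Pdgfra at 0.128, and Hnf4a was lowest in both groups.

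Knockout replicate 3, the library with the highest Dab2, Cubn and Pdgfra, also had the highest fibroblast markers. Of 16 fibroblast markers 15 were tested, all 15 had a positive log2 fold change (median 1.33), and 7 rose in DESeq2, among them Col6a2 and Col6a1, chains of collagen VI. The 16 markers summed to 288, 357 and 835 CPM in the knockout (replicates 1 to 3) against 157, 258 and 238 CPM in the controls. Dab2 reads per 100 reads of Col1a1, the main fibroblast collagen, were 14.0, 28.6 and 23.2 in the knockout and 19.7, 16.8 and 11.6 in the controls. These ranges overlapped, as did those of Cubn (13.4, 25.0 and 15.1 against 18.03, 14.6 and 9.21), Pdgfra (10.7, 15.4 and 6.28 against 15.02, 9.31 and 8.42) and Gata4 (6.42, 7.14 and 3.34 against 8.58, 6.28 and 4.47). Sox17 reads per 100 Col1a1 reads were higher in each knockout clone, at 1.75, 3.13 and 1.11 against 0, 1.01 and 1.05, a gap of few reads. Pluripotent cell markers lay on the other side: 16 of 17 had a negative log2 fold change (median -0.53), 0 were called by edgeR or DESeq2, and 2 had an unadjusted edgeR p under 0.05. Their 5 defining genes summed to 2174, 1594 and 1149 CPM in replicates 1 to 3 of the knockout, against 2437, 2157 and 2407 CPM. The part of feeder cells and of the share of pluripotent cells in these results was not tested, and in bulk RNA a change in the number of cells of a type cannot be told from a change in RNA per cell.

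**Figure D4:**
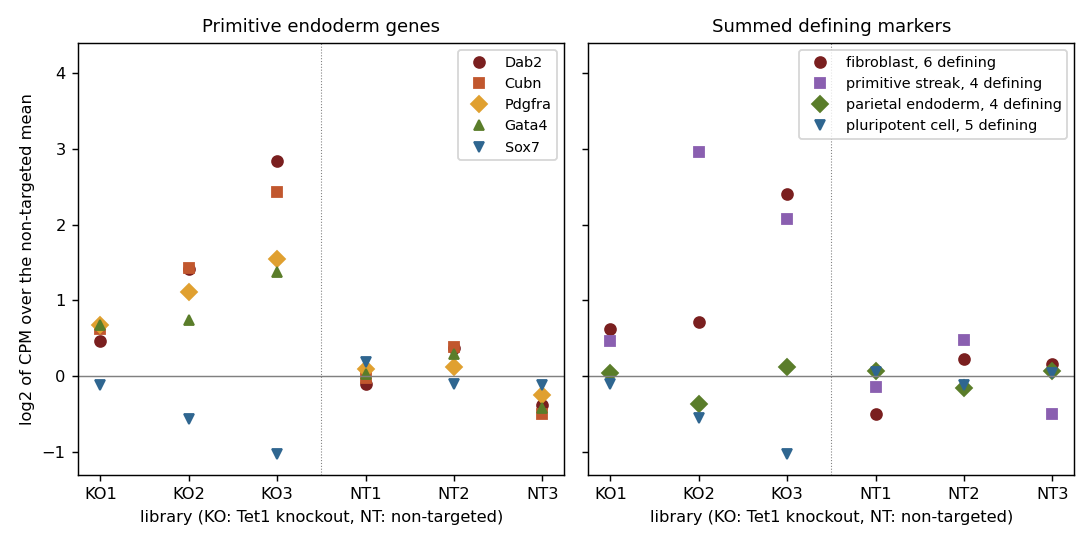
Log2 of CPM over the non-targeted mean (y) in each library (x; KO, Tet1 knockout; NT, non-targeted) for 5 of the genes (left) and for the summed defining markers of 4 cell types (right). Dab2, Cubn, Pdgfra and Gata4 and the fibroblast sum are highest in knockout replicate 3, and the primitive streak sum is highest in knockout replicate 2.

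Other lineages that use the same factors were read in the same way. Of 15 genes of primitive streak and definitive endoderm, which also express Sox17 and Gata6, 10 were tested in edgeR and 8 in DESeq2. In DESeq2 3 rose: Eomes, Sp5 and Wnt3, with log2 fold changes of 1.35 ± 0.33, 2.21 ± 0.61 and 2.80 ± 0.99 (DESeq2 adjusted p = 0.00366, 0.0101 and 0.0234; edgeR adjusted p = 0.111, 0.123 and 0.154). Wnt3 overlapped between the groups, at 0.765, 9.50 and 8.18 CPM in the knockout against 0.161, 1.87 and 0.486 CPM. The 4 defining genes T, Mixl1, Eomes and Gsc summed to 13.2, 74.5 and 40.5 CPM in the knockout (replicates 1 to 3) against 8.70, 13.4 and 6.80 CPM in the controls. Foxa2, a factor shared by visceral and definitive endoderm and named after its values were seen, had 2, 36 and 55 reads against 2, 9 and 5, with knockout replicate 1 as low as the lowest control (DESeq2 adjusted p = 0.0545). Of 10 cardiac mesoderm genes, 6 were tested in edgeR and 3 in DESeq2, and 0 were called by either, with 0 at an unadjusted edgeR p under 0.05. Of 11 endothelial genes, 5 were tested in DESeq2 and 1 rose there, the VEGF receptor Flt1 (1.66 ± 0.56; DESeq2 adjusted p = 0.0230; edgeR adjusted p = 0.146). Flt1 overlapped between the groups, with knockout replicate 1 at 5.13 CPM and non-targeted replicate 2 at 7.04 CPM. Of the 3 defining genes of endothelium, Cdh5 had at most 4 reads in any library, Pecam1 had 496 to 1007 reads and Tek 26 to 86. Tek was lower in each knockout clone and did not pass (-0.92 ± 0.31; edgeR adjusted p = 0.146; DESeq2 adjusted p = 0.0793). Pecam1 had a log2 fold change of -0.38 ± 0.22 and did not pass (edgeR adjusted p = 0.326). The 3 defining genes summed to 71.7, 61.5 and 38.1 CPM in knockout replicates 1 to 3. In the controls they summed to 85.6, 67.4 and 74.2 CPM, so the groups overlapped. The other tested genes of the list leaned the other way. Of the 6 tested in edgeR, 4 had positive log2 fold changes and 2, Tek and Pecam1, negative ones (median of the 6, 0.54). Of these 6, 2 (Kdr and Tie1) were higher in each knockout clone and 1, Tek, lower, beside 14.8% and 14.7% of all tested genes. Tie1 had 20, 19 and 17 reads against 1, 8 and 8. It passed the filter only through its knockout counts, so it is no support. The part of these lineages in the levels of the 9 genes was not tested.

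Of 20 parietal endoderm genes, 19 were tested in edgeR and 19 in DESeq2, not the same 19. In DESeq2 7 of them rose, where 5.77% of all genes were called in that direction. The log2 fold changes from edgeR were positive for 14 and negative for 5, with a median of 1.06. The basement membrane collagens Col4a2 and Col4a1 and the collagen hydroxylase P4ha2 had log2 fold changes of 1.38 ± 0.22, 0.95 ± 0.21 and 1.06 ± 0.22 (DESeq2 adjusted p = 5.62e-06, 0.00191 and 0.00158; edgeR adjusted p = 0.106, 0.109 and 0.106). The 4 defining genes Lama1, Col4a1, Sparc and Thbd summed to 362 to 506 CPM in knockout clones and 418 to 489 CPM in the controls, which overlap. These 4 went both ways: Col4a1 and Thbd had positive log2 fold changes (0.95 and 1.14), and Lama1, a laminin chain, and Sparc had negative ones that did not pass (-0.70 ± 0.34 and -0.17 ± 0.10; edgeR adjusted p = 0.245 and 0.311). Which cells the RNA of this list came from was not tested.

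Upstream of these factors, the FGF receptor and ERK genes were abundant in all clones. Of 17, all were tested and 3 rose in DESeq2: the receptor Fgfr1 (0.52 ± 0.16; DESeq2 adjusted p = 0.0494; edgeR adjusted p = 0.128), the phosphatase Ptpn11, which links the receptor to RAS (0.44 ± 0.12; DESeq2 adjusted p = 0.0451; edgeR adjusted p = 0.122), and the feedback inhibitor Spred1 (0.44 ± 0.09; DESeq2 adjusted p = 0.0102; edgeR adjusted p = 0.106). The ligand Fgf4, named after its values were seen, had 258, 146 and 105 CPM against 276, 236 and 277 CPM and did not pass (-0.63 ± 0.29; edgeR adjusted p = 0.226; DESeq2 adjusted p = 0.130). The list median was -0.03.

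The genes whose pattern was most like the mean of the 7 tested genes over the 6 libraries were Reep5, Serf1, Map3k2, Pth1r and Mid1, with Pearson r from 0.991 to 0.996 among 12306 genes compared. Pth1r, the parathyroid hormone receptor and a gene of the parietal endoderm list, had 1.45, 2.89 and 5.31 CPM in knockout clones and 1.29, 1.25 and 0.694 CPM in the controls. With only 6 libraries, 212 genes had an r above 0.95. Among the tested 7, the closest pair was Dab2 and Cubn (r = 0.991), and Sox7 ran opposite to Dab2 (r = -0.948). All of these values come from the same 6 libraries and include the difference between groups, so they are a description only.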

How the data were processed

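Polyadenylated RNA of 6 clonal lines, 3 per group, was counted per gene. The table the authors deposited holds raw counts. HISAT2 2.1.0 and featureCounts 1.5.3, DESeq2 1.18.1 and the mm10 build are named, per the submitters' processing notes. Per the file headers, featureCounts 1.6.2 counted reverse-stranded reads over whole gene bodies, introns included, on GENCODE M15 of GRCm38.p5, and left out reads on overlapping genes. The deposited gene body lengths (another column) were used to check the rows and for the levels per kilobase of gene body.

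Genes were kept with edgeR's filterByExpr (minimum count 10, minimum total 15), which left 14664 genes, and were scaled by TMM. Groups were compared with edgeR 4.0.16 (quasi-likelihood, group only, Benjamini-Hochberg over all tested genes, threshold 0.05), in R 4.3.3. SE is the size of the log2 fold change over the root of F. DESeq2 1.42.0 and limma 3.58.1 (voom), RLE factors, other filters, a replicate block and single-library omissions were alternatives. The fits were tested on simulated data. Depth limits precision most for genes under about 10 reads.

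The genes and lists were chosen with earlier results of these data known. Named genes are the 9 whatever their result, their tested relatives, and from each list up to 3 genes with the smallest p among those called in DESeq2, since edgeR called none, or 2 where none was called. The genes most alike are the 5 with the highest r to the mean centred log2 CPM, with a mean of at least 1 CPM and no predicted models. Promoters are from RefSeq. Values of some related factors are not reported here.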

Additional observations from a re-analysis of the deposited data

How the results depend on the processing

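The signs of the log2 fold changes did not turn under any setting run for the 9 genes. The number of genes called was 0 in edgeR with all 6 libraries (3641 at an unadjusted p under 0.05), 1247 in DESeq2, 1 in limma voom, 159 with no filter on low counts and 0 with RLE factors or the 1 CPM filter. Of the 9 genes, 3 were called in DESeq2 and 0 in each of the other settings on 6 libraries. Leaving out single libraries gave 0 to 4404 genes in edgeR and 0 to 5 of the 9 genes. All of the calls came without knockout replicate 1 (Gata4, Sox17, Dab2, Pdgfra and Cubn), where 15.1% of tested genes were called higher. Sox17 passed the filter there only through its knockout counts, so its call is no support. DESeq2 with single libraries left out, added after seeing the data, gave 4122, 307 and 262 genes without knockout replicates 1, 2 and 3 and 189, 768 and 127 without non-targeted replicates 1, 2 and 3. Of the 9 genes it called 3, 1 and 0 and then 0, 2 and 0. The median log2 fold change of the tested genes was 0.71 to 1.22 over the edgeR omissions. Over the same omissions 5 to 6 of the 9 genes lay above every non-targeted clone. Leaving out a library cannot lower that count, so it is no measure of stability.

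With the replicate block 3 genes were called, and 0 of the 9. Replicates 1 to 3 are clones 14, 30 and 33 in the knockout and clones 49, 51 and 52 in the non-targeted group. The labels do not say what replicates of the same number share. Deviations of libraries with the same replicate number from their group means correlated at 0.46, 0.11 and -0.02. Knockout replicate 3 correlated best with non-targeted replicate 2 (0.46), so the replicate numbers were not used to pair the clones. Sox17 and Hnf4a, with 51 and 30 reads in all, are limited by depth.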
